A study of Mus musculus with 8 samples.

Results

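The extracellular matrix and basement membrane genes described here are 41 mouse genes that code for collagens, laminins, nidogens, proteoglycans, adhesive glycoproteins, enzymes that fold and crosslink collagen, the matrix protease Mmp2 and 3 tissue inhibitors of metalloproteinases. They were chosen by gene symbol, with earlier results of these data known. For 39 of the 41 the array held a probe set, a group of short probes against 1 transcript, whose annotation named exactly 1 symbol, among 18193 genes measured in this way. Loxl2 and Fbn1 were not analysed here. By role, the 39 genes were 5 fibrillar collagen chains, 2 collagen VI chains, 5 basement membrane collagen chains, 6 laminin chains, 4 nidogens and heparan sulfate proteoglycans, 5 adhesive and matricellular glycoproteins, 2 fibulins, 2 other proteoglycans, 4 proteins of collagen folding and crosslinking, and the 4 genes of the protease and its inhibitors.

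Total RNA was measured on 8 Affymetrix arrays from male embryonic stem (ES) cells of the agouti mouse strain 129S4/Svjae, a cell line type derived from the blastocyst and able to give rise to every tissue, in medium with leukemia inhibitory factor (LIF). Every group received a lentivirus with a short hairpin RNA, was selected with puromycin and was passaged: the control group carried a hairpin against GFP (3 arrays), and the knockdown groups carried a hairpin against Jmjd2b (3 arrays) or Jmjd2c (2 arrays). Both proteins are histone lysine demethylases, and the array names their genes Kdm4b and Kdm4c, and the study's title asks what they do for ES cell identity. The labels do not say whether arrays of a group came from separate infections or cultures or how many hairpins were used, so the p-values describe only how far these arrays scatter, and that scatter may be technical.

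A basement membrane is a thin sheet of matrix beneath epithelia, in which a laminin network and a collagen IV network are tied together by nidogens and by heparan sulfate proteoglycans such as perlecan. In the early mouse embryo the primitive and parietal endoderm secrete much of this sheet, and the epiblast rests on it. The interstitial matrix of fibrillar collagens, fibronectin and matricellular proteins is made largely by mesenchymal cells, and both kinds of matrix are remodelled by metalloproteinases, which the TIMP proteins inhibit.

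The targeted genes checked the labels. Kdm4b had intensities of 421, 339 and 643 in the control arrays, 50.3, 29.3 and 17.0 in the Jmjd2b arrays and 245 and 285 in the Jmjd2c arrays. For Kdm4c they were 1332, 1300.1 and 1210.0 in the control arrays, 752, 800.0 and 650.5 in the Jmjd2b arrays and 142 and 469 in the Jmjd2c arrays, so the second Jmjd2c array held more Kdm4c signal than the first. All 10 ES cell markers lay above the median level of all genes, with a summed intensity of 66510 to 68610 in the control, 48510 to 51420 in the Jmjd2b and 53090 to 53140 in the Jmjd2c arrays. Array medians lay between 44.7 and 46.6, and the actin 3' to 5' signal ratio, which rises with RNA degradation, was 1.45 to 1.63 in the control, 1.31 to 1.42 in the Jmjd2b and 1.43 to 1.48 in the Jmjd2c arrays. By the share of values that were identical on a pair of arrays, the arrays fell into 3 sets: control arrays 1 and 2 with Jmjd2b array 2, control array 3 with Jmjd2b array 1, and Jmjd2b array 3 with both Jmjd2c arrays. Pairs within a set shared 0.412% to 0.621% of their values and pairs across sets 0.035% to 0.080%. No control array lay in the set of the Jmjd2c arrays, so that comparison crosses sets, while each set held 1 Jmjd2b array.

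In the Jmjd2b knockdown 11 matrix genes were called higher and 4 lower. The 11 genes that rose were the laminin chains Lamb1 and Lama5, the collagen chains Col18a1, Col4a5, Col1a1 and Col5a2, the proteoglycan agrin, Sparc, thrombospondin 1 (Thbs1), the collagen chaperone gene Serpinh1 and Timp3. The 4 that fell were Lama1, Nid1, fibronectin (Fn1) and Timp1. Group means were compared in limma on log2(intensity + 16), with p-values adjusted by Benjamini-Hochberg over all 18193 genes and a threshold of 0.05. These 11 higher and 4 lower genes were 38.5% of the 39, beside 24.4% of all genes called in this comparison (11.5% of all genes higher and 12.9% lower). As shares, the 11 higher of 39 exceeded that of all genes, while the 4 lower of 39 did not. The median log2 change was 0.11 for the 39 genes and -0.0285 for all genes. In all 15 called genes the 3 Jmjd2b arrays lay on 1 side of the 3 control arrays. Groups did not overlap for 18 of the 39 genes upward and 7 downward, beside 20.9% and 23.8% of all genes (44.8% either way). The arrays measure bulk RNA, in which fewer cells of a type and less RNA per cell cannot be told apart.

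**Figure D1:**
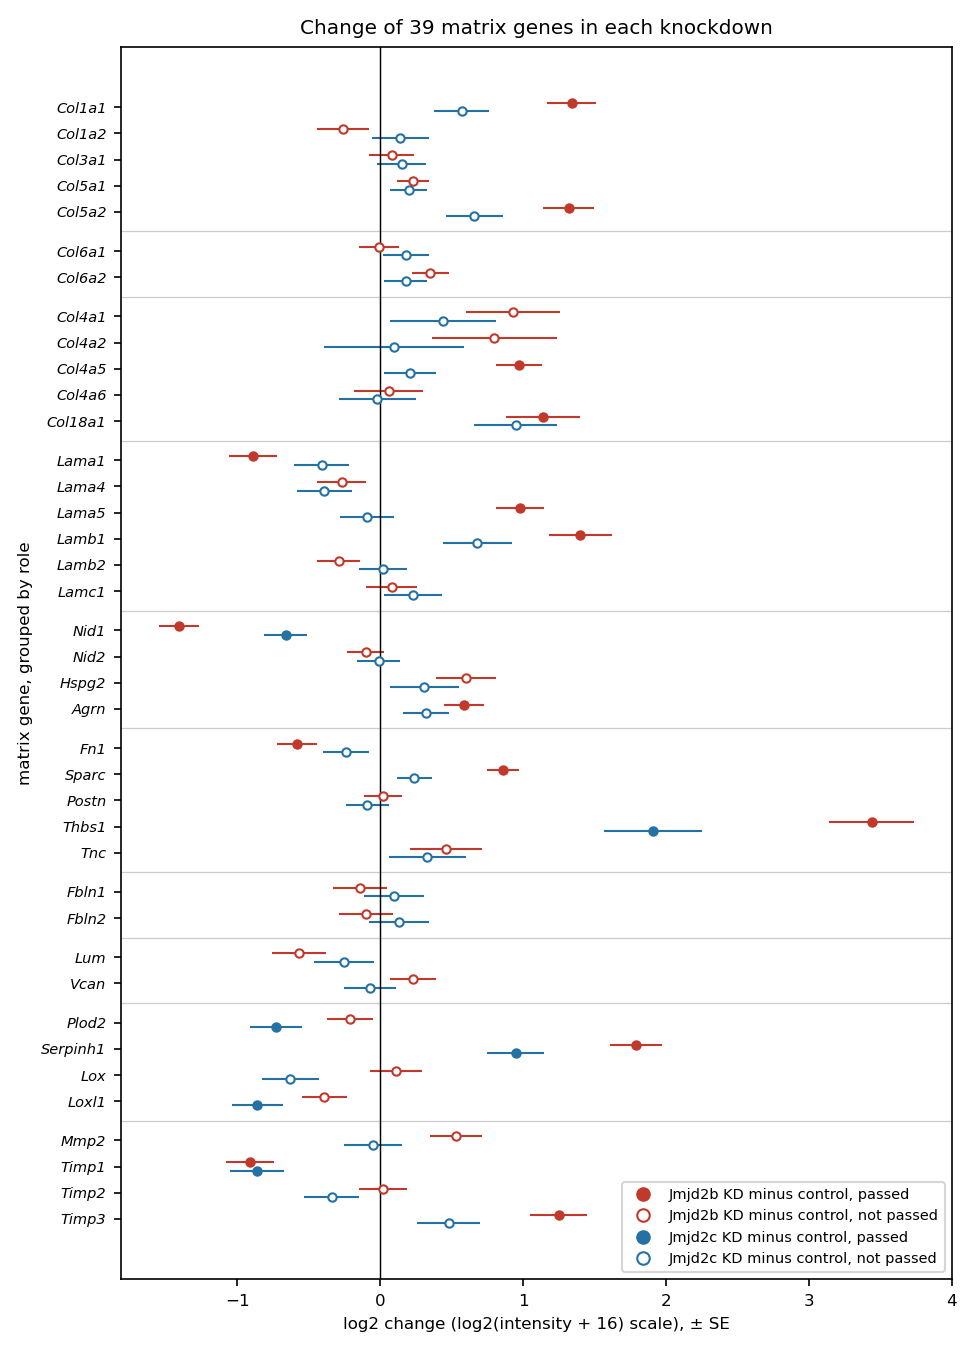
Log2 change, on the log2(intensity + 16) scale, of the 39 matrix genes in the Jmjd2b (red) and Jmjd2c (blue) knockdown against the control, with bars of 1 standard error; filled points passed an adjusted p of 0.05 and grey lines part the roles. Filled red points stand on both sides of 0, from -1.41 for Nid1 to 3.44 for Thbs1, and 6 blue points are filled.

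In the Jmjd2c knockdown 6 of the 39 genes passed. Thbs1 and Serpinh1 rose, and Nid1, Timp1, Plod2 and Loxl1 fell. These 6 genes were 15.4% of the 39, beside 9.53% of all genes called (4.28% higher and 5.25% lower), and the median log2 change was 0.13, beside -0.0199 for all genes. Both knockdowns were compared with the same 3 control arrays, so agreement between them is not independent. Of the 39 genes, 4 were called in both, 11 in the Jmjd2b knockdown alone, 2 in the Jmjd2c knockdown alone and 22 in neither. The same split of all genes is not given here, so these counts do not set the matrix genes apart. With the 3 sets of arrays as a block, a fit chosen after the data were seen, 13 of the 15 Jmjd2b calls were made again (Agrn and Col18a1 were lost) and 0 of the 6 Jmjd2c calls, where only 6 of all 18193 genes were called; the direction was kept for all 15 and all 6. With array type (whether low values were set to 1) as the block, all 15 Jmjd2b calls and 4 of the 6 Jmjd2c calls were made again. Arrays of the first type are control arrays 1 and 2 and Jmjd2b array 2. Control array 3 is the only control among the other 5 arrays. Fits within a type therefore rest on 1 array in a group, and their calls are not counted. In them all 15 and, for Jmjd2c, all 6 genes kept their direction. Since the arrays of the compared groups did not overlap for these genes, the direction could not change there.

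**Figure D2:**
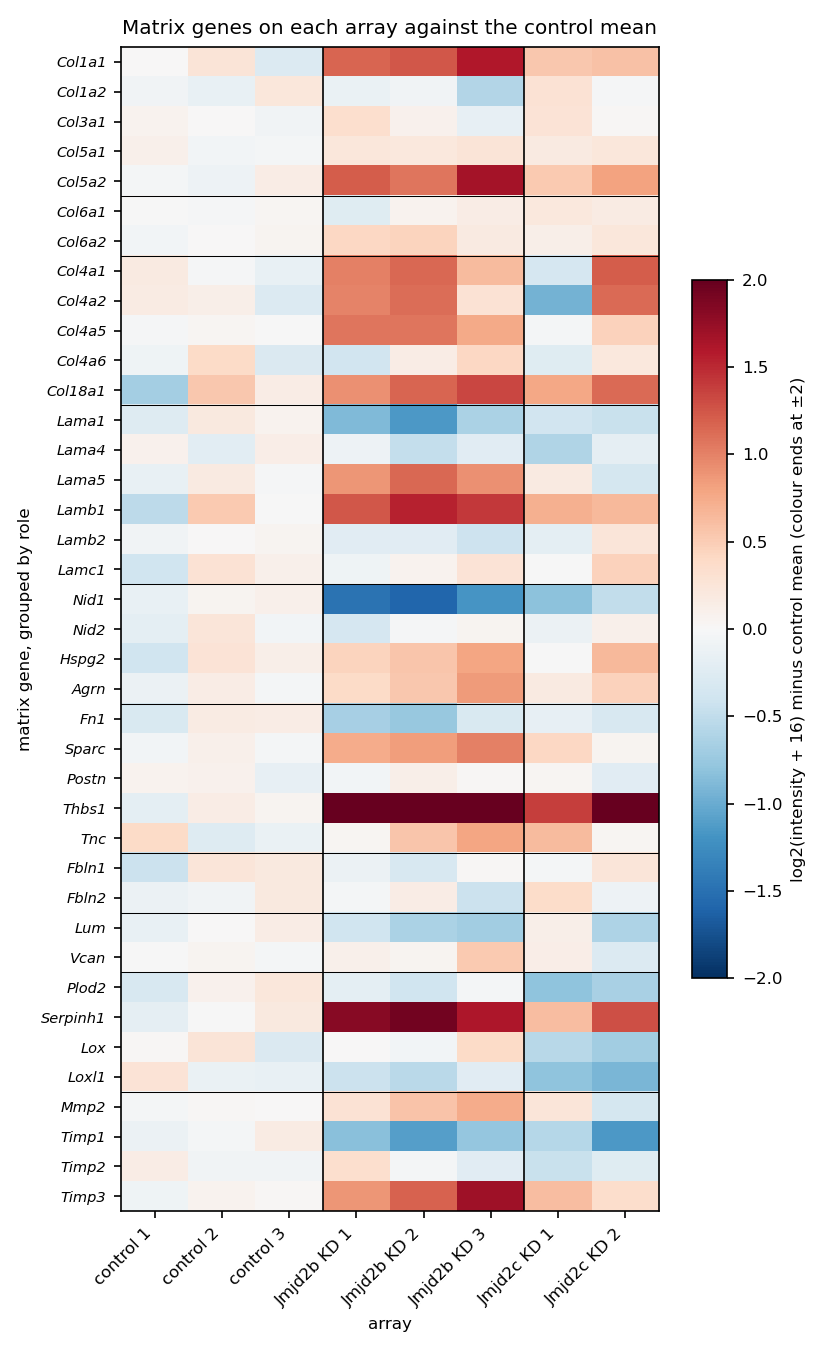
Log2(intensity + 16) of each matrix gene (rows, grouped by role) on each of the 8 arrays (columns) minus the control mean of that gene, from blue (lower) through white to red (higher), with the colour ending at 2 in each direction. Rows differ within a role: Lama1 is blue and Lama5 and Lamb1 are red in the 3 Jmjd2b columns, and the rows of Col4a1 and Col4a2 part the 2 Jmjd2c columns.

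The fibrillar collagens, rod-like trimers that give interstitial tissue its tensile strength, were dim, and 2 of the 5 rose in the Jmjd2b knockdown. Only Col5a1 exceeded the median level of all genes, an intensity of 98.8, in any group. Col1a1, which codes for the major chain of type I collagen, had intensities of 12.5, 17.7 and 7.34 in the control, 47.4, 50.4 and 69.9 in the Jmjd2b and 25.0 and 26.4 in the Jmjd2c arrays. The 3 groups were apart, and on the log2 scale Col1a1 rose by 1.34 ± 0.17 in the Jmjd2b knockdown (adjusted p = 0.000603). Its other probe set read only 0.87 to 4.8 over all arrays, with a log2 change of -0.16 ± 0.11 (adjusted p = 0.385). The rise of Col1a1 is therefore that of 1 dim probe set. Col1a2, its partner chain, ranged from 28.3 to 65.2 over all 8 arrays, with groups that overlapped and a log2 change of -0.26 ± 0.18 (adjusted p = 0.359). Col5a2, a chain of the type V collagen that nucleates fibrils, was at 25.3, 23.7 and 31.3 in the control and 82.7, 73.6 and 119 in the Jmjd2b arrays and rose by 1.32 ± 0.18 on the log2 scale (adjusted p = 0.00073). In the Jmjd2c arrays it was at 44.98 and 58.2, above all controls, without passing (adjusted p = 0.0672; 0.0403 without Jmjd2b array 3). Its neighbour on chromosome 1, Col3a1, ranged from 27.8 to 45.7 with overlapping groups. Col5a1, the other type V chain, had a log2 change of 0.23 ± 0.11 in the Jmjd2b knockdown (adjusted p = 0.181) on its brightest probe set. On its second probe set it was at 115, 142 and 109 in the control and 182, 205 and 203 in the Jmjd2b arrays, a log2 change of 0.63 that passed (adjusted p = 0.0107). The collagen VI genes Col6a1 and Col6a2, neighbours on chromosome 10, ranged from 24.1 to 39.1 and from 38.0 to 60.8, and neither passed in any comparison.

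Type IV collagen forms the sheet-like network of basement membranes, and its genes lie in head-to-head pairs. In the RefSeq annotation (GRCm38.p6) the starts of Col4a6 and Col4a5 lie 1343 bases apart on chromosome X and run away from each other, and those of Col4a1 and Col4a2 on chromosome 8 lie so close, 21 bases, that the transcripts overlap by 22. Col4a5 had intensities of 16.7, 18.4 and 17.2 in the control, 54.5, 54.4 and 40.8 in the Jmjd2b and 16.4 and 30.1 in the Jmjd2c arrays. It was dim in every group, its Jmjd2b arrays lay above all others, and it rose by 0.97 ± 0.16 on the log2 scale (adjusted p = 0.00217; 0.0811 when its probe sets were averaged). Another Col4a5 probe set had a control mean of 17.9, near the 17.4 of the one used. Its log2 change in the Jmjd2b knockdown was -0.16 ± 0.24 (adjusted p = 0.706). The rise of Col4a5 is therefore that of 1 dim probe set. Col4a6, which starts on the other side of the shared stretch, ranged from 37.0 to 75.7, with overlapping groups and a log2 change of 0.06 ± 0.24 (adjusted p = 0.892). The 250 bases before each annotated start are shown because the genes share a stretch and only Col4a5 was called. Capitals mark CCAAT (the CCAAT box) and GGGCGG (the GC box), or their reverse complements ATTGG and CCGCCC, each read 5′ to 3′ on the gene's strand. Windows are GRCm38.p6 chrX:141475169-141475418, plus strand, and chrX:141474077-141474326, minus strand.
Col4a5: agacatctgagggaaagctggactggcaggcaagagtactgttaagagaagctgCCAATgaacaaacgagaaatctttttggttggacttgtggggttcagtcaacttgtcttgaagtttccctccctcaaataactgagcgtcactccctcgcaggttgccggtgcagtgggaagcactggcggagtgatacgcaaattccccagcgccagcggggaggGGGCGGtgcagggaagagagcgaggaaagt
Col4a6: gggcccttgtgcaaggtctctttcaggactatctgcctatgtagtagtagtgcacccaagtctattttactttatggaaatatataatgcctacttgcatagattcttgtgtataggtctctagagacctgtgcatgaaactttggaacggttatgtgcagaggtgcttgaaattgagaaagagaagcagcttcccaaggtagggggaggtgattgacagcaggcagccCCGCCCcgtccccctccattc
The Col4a5 window held 1 CCAAT and 1 GGGCGG, the Col4a6 window 1 GGGCGG, and neither held TATAAA (the TATA box). Over all 32851 windows of that length before an annotated start, CCAAT was found on either strand in 33.8%, GGGCGG in 32.7% and TATAAA in 12.4%. Windows matched 26 of the 39 genes by symbol, of which 10 held CCAAT, 20 GGGCGG and 3 TATAAA; of the 8 matched genes that rose in the Jmjd2b knockdown, 3, 7 and 0 held them, and of the 16 matched genes not called, 5, 11 and 3. Letters that match are a description and no evidence of a site.

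Col4a1 and Col4a2, the chains of the most widespread collagen IV trimer, stood high and low on the same arrays. Col4a1 was at 173, 148 and 135 in the control, 320.3, 355 and 244 in the Jmjd2b and 117 and 373 in the Jmjd2c arrays. Col4a2 was at 131, 126 and 92.0 in the control, 245, 269 and 144 in the Jmjd2b and 52.4 and 273 in the Jmjd2c arrays. Every Jmjd2b array lay above every control for both, while the first Jmjd2c array lay below all controls and the second above all other arrays. Across all 8 arrays in 1 fit neither gene passed in the Jmjd2b knockdown (log2 change 0.93 ± 0.33, adjusted p = 0.0661 for Col4a1, and 0.80 ± 0.44, adjusted p = 0.233 for Col4a2). When either Jmjd2c array was left out, both passed there, with an adjusted p of 0.00141 and 0.00151 for Col4a1 and of 0.0193 and 0.0199 for Col4a2. Without the first Jmjd2c array both were also higher in the Jmjd2c knockdown (adjusted p = 0.00553 and 0.0329), and without the second both were lower in the Jmjd2c than in the Jmjd2b knockdown (0.0186 and 0.0204). Of 16 markers of primitive and parietal endoderm, which make collagen IV in the embryo, 8 were higher and 8 lower on the second Jmjd2c array than on the first: Foxa2 (17.4 and 121) and Sox7 (24.1 and 91.4) were higher there, and Gata4 (24.7 and 21.2), Gata6 (14.8 and 13.2) and Amn (52.1 and 39.9) were lower. These counts do not weigh the size of each difference. Summed over the 16 markers, the intensity was 814.5 on the first and 1026 on the second Jmjd2c array. Without Lrp2, left out after the values were seen, it was 450.0 on the first and 629.9 on the second. The part of such endoderm cells, or of the weaker Kdm4c knockdown on the second array, was not tested.

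Col18a1, the basement membrane collagen whose C-terminal fragment is endostatin, was at 613, 1453 and 1097 in the control, 1878, 2256 and 2544 in the Jmjd2b and 1702 and 2193 in the Jmjd2c arrays. All arrays of both knockdowns lay above the controls, which themselves spread widely, with control array 1 lowest. It rose by 1.14 ± 0.26 on the log2 scale in the Jmjd2b arrays (adjusted p = 0.0108; 0.0902 with the array sets as a block). In the Jmjd2c knockdown the log2 change was 0.95 ± 0.29 (adjusted p = 0.0729), and it passed without control array 2 (1.22, adjusted p = 0.0302).

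Laminins are heterotrimers of an alpha, a beta and a gamma chain, and laminin-111, made of the products of Lama1, Lamb1 and Lamc1, is the first laminin of the embryo. In the Jmjd2b knockdown 1 of its 3 chain genes fell, 1 rose and 1 did not pass. Lama1 fell from 339, 474 and 429 in the control arrays to 215, 176 and 258 in the Jmjd2b arrays, with 312 and 297 in the Jmjd2c arrays. Its groups did not overlap, and the log2 change was -0.89 ± 0.17 in the Jmjd2b (adjusted p = 0.00411) and -0.41 ± 0.19 in the Jmjd2c knockdown (adjusted p = 0.22). Lamb1, by contrast, rose from 539.7, 1139 and 782 to 1871, 2319 and 2113, with 1299.7 and 1233 in the Jmjd2c arrays. The lowest Jmjd2b array exceeded the highest control, although the controls differed among themselves, and the log2 change was 1.40 ± 0.22 (adjusted p = 0.00148). In the Jmjd2c knockdown it was 0.68 ± 0.24 (adjusted p = 0.114; 0.0210 without control array 2, the highest control). A second Lamb1 probe set moved the same way, by 1.54 ± 0.22 (adjusted p = 0.000937). Lamc1 had overlapping groups, from 1223 to 2224 over all arrays, and a log2 change of 0.08 ± 0.18 (adjusted p = 0.793).

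The alpha chain that rose was that of laminin-511, the laminin on which pluripotent cells are commonly cultured. Lama5 was at 113, 145 and 125 in the control, 248, 302 and 253 in the Jmjd2b and 147 and 95.6 in the Jmjd2c arrays. Only its Jmjd2b arrays stood apart, while the Jmjd2c arrays overlapped the controls. The log2 change was 0.98 ± 0.17 in the Jmjd2b knockdown (adjusted p = 0.00281) and -0.09 ± 0.19 in the Jmjd2c knockdown (adjusted p = 0.845), and a second probe set gave 0.95 ± 0.19 (adjusted p = 0.00606) for the first. Among the 15 genes called in the Jmjd2b knockdown, Lama5 was the exception: for the other 14 the Jmjd2c mean lay between the control and the Jmjd2b mean. The same count over all genes called in the Jmjd2b knockdown is not given here. This order of the means therefore does not set the matrix genes apart. Lama4, the alpha chain typical of vessels and mesenchyme, was dim (10.3 to 27.8), and Lamb2, the beta chain of synaptic and kidney basement membranes, ranged from 48.0 to 84.9; neither passed in any comparison. The window before the start of Lamb1, the laminin gene with the largest change, is GRCm38.p6 chr12:31265043-31265292, plus strand, with 1 CCAAT and 2 GGGCGG in capitals.
Lamb1: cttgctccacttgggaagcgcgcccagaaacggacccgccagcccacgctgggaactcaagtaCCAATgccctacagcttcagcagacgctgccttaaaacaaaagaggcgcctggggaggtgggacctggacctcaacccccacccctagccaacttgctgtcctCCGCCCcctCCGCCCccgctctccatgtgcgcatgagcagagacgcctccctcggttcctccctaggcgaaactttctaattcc
It is one of the 3 windows with CCAAT among the 8 matched genes that rose.

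Nidogens join the laminin to the collagen IV network. Nid1 was at 1884, 2168 and 2240.4 in the control, 745, 684 and 916 in the Jmjd2b and 1174 and 1484 in the Jmjd2c arrays on its brightest probe set. No knockdown array reached the lowest control, and the Jmjd2c arrays lay between the other groups. On the log2 scale it fell by 1.41 ± 0.14 in the Jmjd2b knockdown (adjusted p = 0.000138) and by 0.66 ± 0.15 in the Jmjd2c knockdown (adjusted p = 0.0261). A second probe set, also above the median level, went the other way: it read 166, 163 and 166 in the control, 244, 284 and 355 in the Jmjd2b and 186 and 167 in the Jmjd2c arrays. On it the log2 change was 0.76 ± 0.15 (adjusted p = 0.00517) in the Jmjd2b knockdown and 0.09 ± 0.17 (adjusted p = 0.826) in the Jmjd2c knockdown. With the mean of all Nid1 probe sets both calls were lost (log2 change -0.31, adjusted p = 0.128, and -0.28, adjusted p = 0.307). The direction given for Nid1 is therefore that of 1 probe set, and which transcript each probe set reads was not tested. Of the 7 genes called in the Jmjd2b knockdown with a second probe set above the median level, Nid1 was the 1 whose second probe set had the opposite sign. The Jmjd2c call was also lost without control array 2 (adjusted p = 0.0705), control array 3 (0.112) or Jmjd2c array 1 (0.0745).

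**Figure D3:**
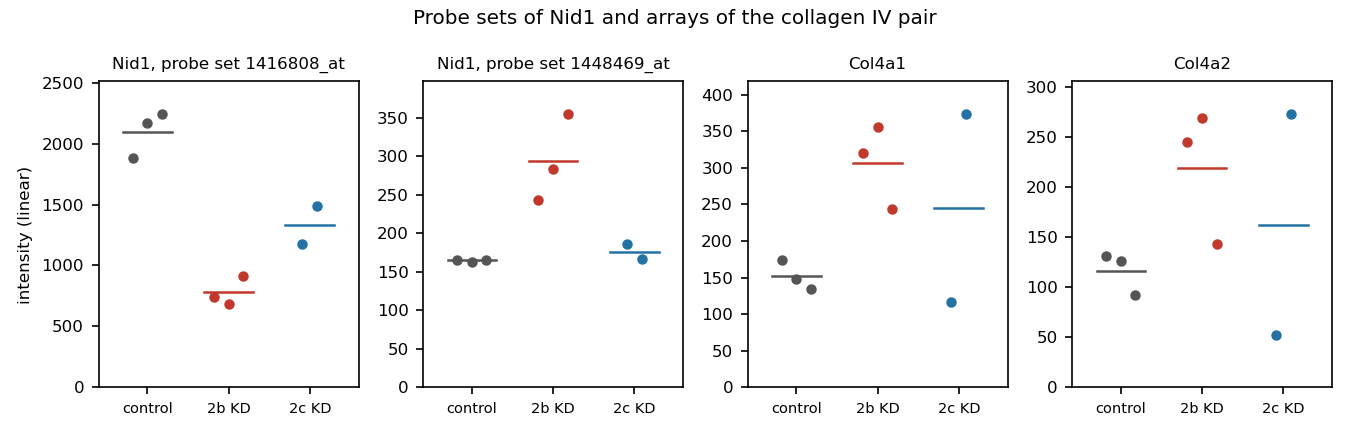
Linear intensity on each array (points) and group mean (lines) for the 2 brighter probe sets of Nid1 and for Col4a1 and Col4a2 in control, Jmjd2b (2b KD) and Jmjd2c (2c KD) arrays. The Nid1 probe sets move in opposite directions in the Jmjd2b arrays, and the 2 Jmjd2c arrays lie on either side of the Jmjd2b arrays for both collagen IV genes.

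Nid2, the paralog that can stand in for nidogen-1, ranged from 2103 to 3145 with overlapping groups, and its log2 change was -0.10 ± 0.13 in the Jmjd2b (adjusted p = 0.637) and -0.01 ± 0.15 in the Jmjd2c knockdown (adjusted p = 0.978). The Nid1 window, shown as that of the gene with the lowest adjusted p among those that fell, is GRCm38.p6 chr13:13437352-13437601, plus strand, with 1 CCAAT (as ATTGG) and 1 GGGCGG in capitals.
Nid1: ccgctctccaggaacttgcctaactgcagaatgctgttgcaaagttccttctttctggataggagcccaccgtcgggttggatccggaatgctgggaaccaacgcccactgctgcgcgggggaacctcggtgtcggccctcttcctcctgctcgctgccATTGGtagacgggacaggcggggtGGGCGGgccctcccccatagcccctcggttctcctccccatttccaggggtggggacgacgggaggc
Both matched genes that fell in the Jmjd2b knockdown, Nid1 and Timp1, held CCAAT and GGGCGG in this window.

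The heparan sulfate proteoglycans bind growth factors and anchor cells to the laminin network. Agrn, which codes for agrin, was at 697, 839.8 and 738 in the control, 986, 1105 and 1374 in the Jmjd2b and 859.7 and 1047 in the Jmjd2c arrays. All knockdown arrays lay above all controls, and the log2 change was 0.59 ± 0.14 in the Jmjd2b knockdown (adjusted p = 0.0138) and 0.32 ± 0.16 in the Jmjd2c knockdown (adjusted p = 0.256). The Agrn call was lost without control array 1 (adjusted p = 0.0538) or 3 (0.0597), with the array sets as a block (0.0702) and when its probe sets were averaged (0.0939). Hspg2, which codes for perlecan, was at 387, 624 and 557 in the control, 703, 761 and 902 in the Jmjd2b and 507 and 810.0 in the Jmjd2c arrays. Its Jmjd2b arrays lay above the controls without passing (log2 change 0.60 ± 0.21, adjusted p = 0.066), and it passed with the replicate number as a block (adjusted p = 0.0161) and without either Jmjd2c array (0.0216 and 0.0219). Its second probe set had a log2 change of 0.06 (adjusted p = 0.843).

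On the probe sets used, the largest change of all 39 genes was that of Thbs1, among the adhesive and matricellular glycoproteins. Thrombospondin 1 is a secreted trimer that binds cells, matrix and latent transforming growth factor beta. Thbs1 was at 13.4, 21.2 and 19.1 in the control, 241, 341 and 514 in the Jmjd2b and 71.9 and 167 in the Jmjd2c arrays. The 3 groups were fully apart, with the Jmjd2c arrays between the controls and the Jmjd2b arrays. The log2 change was 3.44 ± 0.30, or 10.8-fold on the log2(intensity + 16) scale, in the Jmjd2b knockdown (adjusted p = 9.93e-05) and 1.91 ± 0.34, or 3.76-fold, in the Jmjd2c knockdown (adjusted p = 0.0099; 0.408 when the array sets formed a block). Since the control arrays lay near the added 16, these folds understate the ratio of the intensities on this probe set. A second Thbs1 probe set, under the median level, read higher in the controls (33.9, 35.4 and 40.6) and moved the same way by less. The probe set used was thus the brighter only through the knockdown arrays, and the size of the change depends on that choice. On it the log2 change was 0.94 ± 0.15 in the Jmjd2b knockdown (adjusted p = 0.00183). In the Jmjd2c knockdown it was 0.35 ± 0.17 and did not pass (adjusted p = 0.265).

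Sparc, a collagen-binding glycoprotein gene active in parietal endoderm and in remodelling tissue, was at 2213, 2488 and 2236 in the control, 3871, 4120.0 and 4654 in the Jmjd2b and 3088 and 2406 in the Jmjd2c arrays. The Jmjd2b arrays stood above all others, and the second Jmjd2c array fell within the controls. Its log2 change was 0.86 ± 0.11 in the Jmjd2b (adjusted p = 0.000491) and 0.24 ± 0.12 in the Jmjd2c knockdown (adjusted p = 0.269), and a second probe set gave 1.10 ± 0.15 (adjusted p = 0.000721) for the former. Fn1, which codes for fibronectin, the main ligand of integrin alpha 5 beta 1, was at 4179, 5788 and 5716 in the control, 3266, 3041 and 4172 in the Jmjd2b and 4592 and 4152 in the Jmjd2c arrays. The highest Jmjd2b array lay just under the lowest control, and the Jmjd2c arrays overlapped both groups. Fn1 fell by 0.58 ± 0.14 on the log2 scale in the Jmjd2b arrays (adjusted p = 0.0158). This call was lost without control array 2 (adjusted p = 0.0605), control array 3 (0.0767), Jmjd2b array 1 (0.0585) or Jmjd2b array 2 (0.0714), and on a second probe set (-0.58, adjusted p = 0.0591). Tnc and Postn, which code for tenascin C and periostin of healing and mesenchymal tissue, were dim, at 11.1 to 39.8 and 7.71 to 14.01, and did not pass in either knockdown.

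None of the fibulins and the other proteoglycans passed against the control. Fbln1, a basement membrane and elastic fibre component, ranged from 296 to 481 with overlapping groups, and Fbln2 from 10.2 to 29.2. Vcan, the gene of the large chondroitin sulfate proteoglycan versican, ranged from 297 to 527, with a log2 change of 0.23 ± 0.16 in the Jmjd2b knockdown (adjusted p = 0.358). Lum, which codes for the keratan sulfate proteoglycan lumican of collagen-rich tissue, was near the bottom of the scale: 16.1, 19.7 and 23.4 in the control, 11.1, 6.99 and 6.05 in the Jmjd2b and 22.6 and 7.18 in the Jmjd2c arrays. Its log2 change in the Jmjd2b knockdown was -0.57 ± 0.19 (adjusted p = 0.0554; 0.0131 without either Jmjd2c array).

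The genes that fold and crosslink collagen did not move as 1 group. Serpinh1 codes for HSP47, the chaperone of the endoplasmic reticulum that binds procollagen. It was at 214, 244 and 281 in the control, 907, 979 and 780.0 in the Jmjd2b and 384 and 621 in the Jmjd2c arrays. The 3 groups did not overlap, with the Jmjd2c arrays in the middle. The log2 change was 1.79 ± 0.18, or 3.46-fold, in the Jmjd2b knockdown (adjusted p = 0.000187) and 0.95 ± 0.20, or 1.94-fold, in the Jmjd2c knockdown (adjusted p = 0.02). A second probe set, whose probes can also match other transcripts, gave 1.70 ± 0.18 (adjusted p = 0.000216) and 0.92 ± 0.20 (adjusted p = 0.0235) in turn. The Jmjd2c call was lost without control array 1 (adjusted p = 0.0669), 2 (0.0512) or 3 (0.0524) or without Jmjd2c array 2 (log2 change 0.62, adjusted p = 0.0654), and with array type as a block (0.0755). The window before the Serpinh1 start, shown as that of a gene called in both knockdowns, is GRCm38.p6 chr7:99353240-99353489, minus strand, with 1 GGGCGG in capitals.
Serpinh1: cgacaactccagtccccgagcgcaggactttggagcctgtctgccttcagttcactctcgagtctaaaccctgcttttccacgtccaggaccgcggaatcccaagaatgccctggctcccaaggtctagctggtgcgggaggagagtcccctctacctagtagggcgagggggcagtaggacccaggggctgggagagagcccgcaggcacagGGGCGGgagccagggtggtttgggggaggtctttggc
CCAAT and TATAAA were not among its letters.

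Of the 3 crosslinking enzyme genes, 2 fell in the Jmjd2c knockdown. Plod2, which codes for the lysyl hydroxylase of collagen telopeptides, was at 590.2, 783 and 872 in the control, 643, 556 and 718 in the Jmjd2b and 417 and 463 in the Jmjd2c arrays. Both Jmjd2c arrays lay below all others, while the Jmjd2b arrays overlapped the controls. Plod2 fell in the Jmjd2c knockdown by 0.73 ± 0.18 on the log2 scale (adjusted p = 0.0316), and its log2 change in the Jmjd2b knockdown was -0.21 ± 0.16 (adjusted p = 0.388). Loxl1, a lysyl oxidase-like gene needed for elastic fibres, was at 136, 98.7 and 97.7 in the control, 77.6, 70.5 and 91.7 in the Jmjd2b and 55.9 and 50.7 in the Jmjd2c arrays. All knockdown arrays lay below all controls, with the Jmjd2c arrays lowest, and Loxl1 fell by 0.86 ± 0.18 in the Jmjd2c knockdown (adjusted p = 0.0172) against -0.39 ± 0.16 in the Jmjd2b knockdown (adjusted p = 0.104). Lox, the founding lysyl oxidase, was dim, at 38.0, 47.5 and 27.4 in the control, 37.4, 34.9 and 53.1 in the Jmjd2b and 19.9 and 16.5 in the Jmjd2c arrays, and did not pass in the Jmjd2c knockdown (log2 change -0.63 ± 0.20, adjusted p = 0.0777). The Plod2 call was lost without control array 2 (adjusted p = 0.0840), control array 3 (0.127), Jmjd2b array 1 (0.0568) or Jmjd2c array 1 (0.0648), and on a second probe set (0.142), and the Loxl1 call without control array 1 (0.0525), control array 3 (0.0510) or Jmjd2c array 2 (0.0522) and when its probe sets were averaged (0.113). Neither the Plod2 nor the Loxl1 difference between the knockdowns passed (adjusted p = 0.246 and 0.298).

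The inhibitors of matrix metalloproteinases moved in opposite directions in the Jmjd2b knockdown. Timp1, which codes for a soluble inhibitor, was at 641, 679.8 and 788 in the control, 386, 316 and 401 in the Jmjd2b and 464 and 307 in the Jmjd2c arrays. All 5 knockdown arrays lay below all controls, and the knockdown groups overlapped each other. Timp1 fell by 0.91 ± 0.17 on the log2 scale in the Jmjd2b (adjusted p = 0.00376) and by 0.86 ± 0.19 in the Jmjd2c knockdown (adjusted p = 0.0213). The second call was lost without control array 2 (adjusted p = 0.0512), control array 3 (0.0976) or Jmjd2c array 2 (0.0717). Timp3, the inhibitor that binds to the matrix itself, was at 58.2, 66.5 and 64.2 in the control, 129.8, 162 and 238 in the Jmjd2b and 105 and 84.4 in the Jmjd2c arrays. No knockdown array was as low as any control, and Timp3 rose in the Jmjd2b knockdown by 1.25 ± 0.20 (adjusted p = 0.00163), with 0.48 ± 0.22 in the Jmjd2c knockdown (adjusted p = 0.221). Timp2, a further soluble inhibitor, ranged from 93.0 to 170.2, with a log2 change of 0.02 ± 0.17 in the Jmjd2b and -0.34 ± 0.19 in the Jmjd2c knockdown, neither past the threshold (adjusted p = 0.944 and 0.303). Mmp2, the gelatinase that TIMP proteins inhibit, was at 174, 182 and 179.9 in the control, 221, 274 and 310.1 in the Jmjd2b and 215 and 137 in the Jmjd2c arrays. Its Jmjd2b arrays lay above the controls, with a log2 change of 0.53 ± 0.18 that did not pass (adjusted p = 0.0548; 0.0453 without Jmjd2b array 1, and 0.0130 and 0.0127 without either Jmjd2c array).

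The windows before the Timp1 and Timp3 starts are shown side by side because the genes are paralogs that moved apart. They are GRCm38.p6 chrX:20869916-20870165, plus strand, and chr10:86300162-86300411, plus strand.
Timp1: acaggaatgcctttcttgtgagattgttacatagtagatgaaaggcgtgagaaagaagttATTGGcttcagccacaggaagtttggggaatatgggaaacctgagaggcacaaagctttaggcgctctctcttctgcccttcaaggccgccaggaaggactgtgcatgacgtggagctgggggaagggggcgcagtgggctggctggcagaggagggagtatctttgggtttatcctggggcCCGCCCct
Timp3: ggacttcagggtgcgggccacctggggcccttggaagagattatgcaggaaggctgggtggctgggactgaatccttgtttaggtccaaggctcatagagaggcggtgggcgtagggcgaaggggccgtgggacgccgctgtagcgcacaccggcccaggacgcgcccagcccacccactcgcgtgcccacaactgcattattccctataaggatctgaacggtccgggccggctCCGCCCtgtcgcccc
The Timp1 window held 1 CCAAT, as ATTGG, 190 bases before the start and 1 GGGCGG 8 bases before it, both on the other strand. In the Timp3 window 1 GGGCGG, on the other strand, began 15 bases before the start, and no CCAAT was found.

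**Figure D4:**
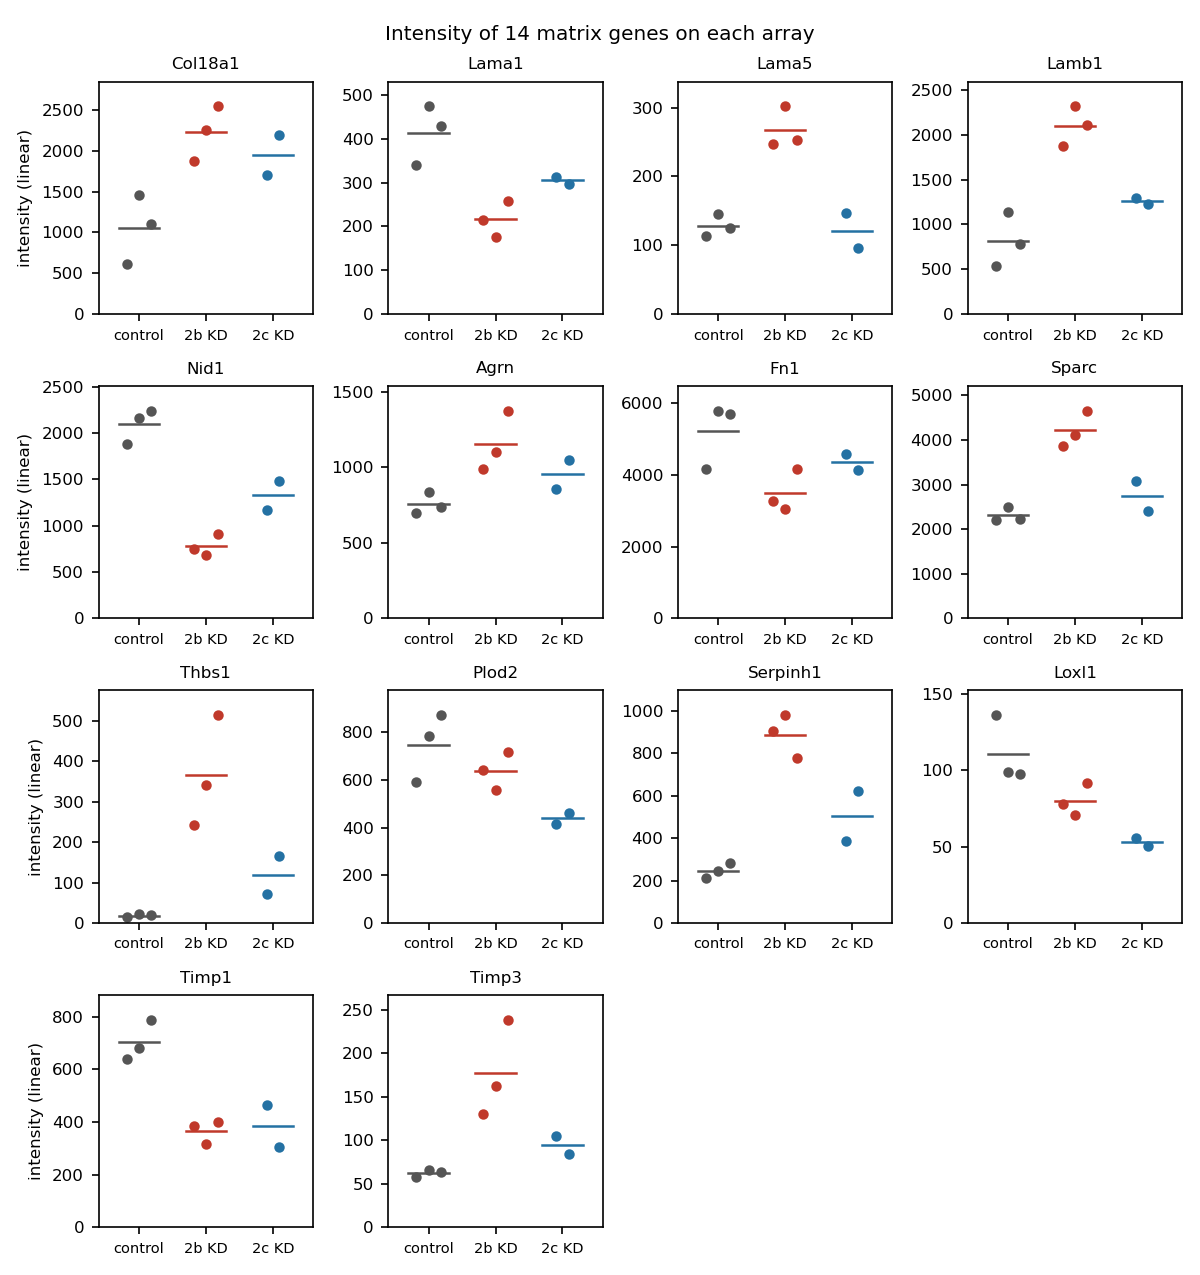
Linear intensity on each array (points) and group mean (lines) of the 14 matrix genes that passed in a comparison and exceeded the median level, in control, Jmjd2b (2b KD) and Jmjd2c (2c KD) arrays; each panel has its own axis from 0. Thbs1 runs from 13.4 to 21.2 in the controls and from 241 to 514 in the Jmjd2b arrays, while Plod2 and Loxl1 are lowest in the Jmjd2c arrays.

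Set against each other, the knockdowns did not differ past the threshold in any of the 39 genes in limma, where 0.467% of all genes were called. At an unadjusted p under 0.05, 15 of the 39 genes differed, 13 of them lower in the Jmjd2c knockdown, beside 13.0% of all genes; limma without a trend also called 0. The smallest adjusted p was that of Lama5, lower in the Jmjd2c knockdown by a log2 difference of -1.07 ± 0.19 (adjusted p = 0.0501), followed by Sparc (-0.62 ± 0.12, adjusted p = 0.057) and by Nid1, higher by 0.75 ± 0.15 (adjusted p = 0.0648). Lama5 passed with 64 in place of 16 added to the intensity (adjusted p = 0.0410), and without Jmjd2c array 1 Lama5 (0.00757), Sparc (0.00976), Nid1 (0.0179) and Mmp2 (0.0335) passed. Without Jmjd2c array 2, Thbs1 (0.0137), Serpinh1 (0.0129) and Col4a5 (0.0260) were lower in the Jmjd2c knockdown. Groups did not overlap for 5 genes upward and 14 downward, beside 13.4% and 13.7% of all genes (27.1% either way). The median difference was -0.19 for the 39 genes and 0.0004 for all genes. The Jmjd2c group had 2 arrays that differed from each other, and a difference that did not pass does not show that the knockdowns act alike.

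The 4 lists of other matrix genes were counted in the same fit, none of them independent of earlier results from these data. Matrix receptors, which link cells to laminin, collagen and fibronectin, rose in 9 of 23 and fell in 0 in the Jmjd2b knockdown, beside 11.5% and 12.9% of all genes. The 3 with the smallest p were Itgb5 (1.37 ± 0.17), a beta chain of vitronectin receptors, Ddr1 (2.06 ± 0.28), a collagen receptor tyrosine kinase, and Cd44 (1.91 ± 0.30), a hyaluronan receptor (adjusted p = 0.000496, 0.000692 and 0.00161). In the Jmjd2c knockdown 2 of 23 rose and 0 fell, a share of 8.7% beside 9.53% of all genes. Of these Itga9, a tenascin and fibronectin receptor chain, was the 1 above the median level (0.71 ± 0.15, adjusted p = 0.0209). Collagen processing enzymes rose in 3 of 19 and fell in 4 in the Jmjd2b knockdown, a share of 36.8% beside 24.4% of all genes. Pcolce, the enhancer of procollagen C-proteinase, fell in the Jmjd2b (-1.36 ± 0.12, adjusted p = 9.32e-05) and the Jmjd2c knockdown (-1.11 ± 0.13, adjusted p = 0.00291), as did P4ha2, a prolyl hydroxylase subunit (-1.02 ± 0.16 and -1.08 ± 0.18). Plod3, another lysyl hydroxylase, rose in the Jmjd2b knockdown (0.60 ± 0.16, adjusted p = 0.0194).

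Other structural matrix genes rose in 7 of 42 and fell in 3 in the Jmjd2b knockdown, a share of 23.8% beside 24.4% of all genes. Efemp1, which codes for fibulin-3, had intensities of 8.77, 20.3 and 13.2 in the control, 388, 541 and 765 in the Jmjd2b and 37.6 and 261 in the Jmjd2c arrays. It was above all controls on every knockdown array, with log2 changes of 4.24 ± 0.49 (adjusted p = 0.000343) and 2.04 ± 0.55 (adjusted p = 0.0471). Pxdn, the peroxidase that crosslinks collagen IV, was at 128, 157 and 105 in the control, 527, 810.5 and 651 in the Jmjd2b and 183 and 509 in the Jmjd2c arrays and rose in the Jmjd2b knockdown (2.21 ± 0.31, adjusted p = 0.000954). Its second Jmjd2c array stood high, as for Col4a1 and Col4a2. Tgfbi, a collagen-binding secreted protein gene, fell in both (-2.11 ± 0.29, adjusted p = 0.000883, and -1.28 ± 0.33, adjusted p = 0.0387). Matrix proteases and other inhibitors rose in 2 of 15 and fell in 1 in the Jmjd2b knockdown, a share of 20.0% beside 24.4% of all genes. Adamts1 (1.54 ± 0.21) and Mmp14 (1.24 ± 0.24), a membrane protease that activates pro-MMP2, rose, and Mmp11 (-1.17 ± 0.16) fell (adjusted p = 0.000743, 0.00502 and 0.000658). Over all 99 measured genes of the 4 lists, 21 rose and 8 fell in the Jmjd2b knockdown (29.3%, beside 24.4% of all genes). In the Jmjd2c knockdown 5 rose and 4 fell (9.09%, beside 9.53% of all genes).

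Markers of other cell types that make matrix were counted in the same fit, and their part in the matrix changes was not tested. Of 16 fibroblast markers, 5 rose and 3 fell in the Jmjd2b knockdown, beside 11.5% and 12.9% of all genes, and 3 rose and 3 fell in the Jmjd2c knockdown, beside 4.28% and 5.25%. Their median log2 change was 0.03 and 0.21 in turn. The smooth muscle and fibroblast genes Tagln and Acta2 rose: Tagln was at 46.9, 135 and 129 in the control, 2199, 1994 and 8213 in the Jmjd2b and 917 and 1011 in the Jmjd2c arrays, and Acta2 at 1403, 1805 and 1695 in the control, 3999, 4141 and 5172 in the Jmjd2b and 2774 and 2569.7 in the Jmjd2c arrays. Twist1 (1.84 ± 0.21), S100a4 (0.80 ± 0.16) and Tcf21 (0.68 ± 0.17) also rose in the Jmjd2b knockdown (adjusted p = 0.000327, 0.00605 and 0.0142). They lay under the median level in every group, and Twist1 rose in the Jmjd2c knockdown too (1.33 ± 0.24, adjusted p = 0.0099). Thy1 (-1.33 ± 0.24), Pdgfrb (-1.36 ± 0.21) and Prrx2 (-0.97 ± 0.24) fell in the Jmjd2b knockdown (adjusted p = 0.00311, 0.00156 and 0.0161). The summed intensity of all 16 was 2308 to 2708 in the control, 6733 to 13920 in the Jmjd2b and 4227 in both Jmjd2c arrays. Tagln and Acta2 carried that rise: without them, left out after the values were seen, the other 14 summed to 768 to 858 in the control, 534 to 604 in the Jmjd2b and 536 to 646 in the Jmjd2c arrays. Pdgfrb weighed most in that smaller sum, with means of 377.5 in the control, 137.3 in the Jmjd2b and 197.7 in the Jmjd2c arrays. The sum therefore does not give the direction of each of the other markers. Of the 16 markers, 12 lay under the median level in every group, and Meox1 read under 16 on every array.

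Of 16 primitive and parietal endoderm markers, 3 rose and 1 fell in the Jmjd2b knockdown, 25.0% beside 24.4% of all genes, and 2 rose and 1 fell in the Jmjd2c knockdown, 18.8% beside 9.53%. Their median log2 change was -0.05 and -0.09 in turn. The endocytic genes Lrp2 (2.95 ± 0.21) and Dab2 (1.35 ± 0.16) and the transcription factor gene Foxa2 (1.88 ± 0.41) rose in the Jmjd2b knockdown (adjusted p = 3.99e-05, 0.000327 and 0.0082), and Amn, a partner of cubilin in endocytosis, fell (-0.77 ± 0.14, adjusted p = 0.00293). The transcription factor genes Gata4 (18.7 to 32.0), Gata6 (13.2 to 32.6) and Sox17 (22.1 to 34.9) stayed under the median level on every array. The summed intensity was 555.5 to 569 in the control, 972 to 1267 in the Jmjd2b and 814.5 to 1026 in the Jmjd2c arrays. Without Lrp2, left out after the values were seen, it was 493 to 522 in the control, 556 to 636 in the Jmjd2b and 450.0 to 629.9 in the Jmjd2c arrays. Of the 16 markers, 14 lay under the median level in every group, and Afp read under 16 on every array.

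ES cell markers fell for 8 of 10 in the Jmjd2b knockdown, beside 12.9% of all genes, and for 5 of 10 in the Jmjd2c knockdown, beside 5.25%. Klf4, a pluripotency transcription factor gene, was at 6201, 6039 and 6831 in the control, 2524, 2143 and 1879.9 in the Jmjd2b and 2744 and 2754 in the Jmjd2c arrays. Pou5f1, which codes for the pluripotency factor OCT4, ranged from 7409.8 to 8038 over all arrays and did not pass in the Jmjd2b knockdown (adjusted p = 0.984). Of 8 endothelial markers 0 rose in either knockdown and 2 fell in the Jmjd2b knockdown, a share called of 25.0% beside 24.4% of all genes. Their summed intensities were 346 to 414 in the control, 207 to 328.5 in the Jmjd2b and 318 to 345 in the Jmjd2c arrays.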

How the data were processed

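The authors' deposited table holds 1 linear intensity value per probe set and array, 45101 probe sets on 8 arrays. The probe summary and scaling behind it are not given in the sources used here, and with no scanner files used here background and saturation could not be judged. Names came from the platform's annotation: 34945 probe sets had exactly 1 gene symbol, 932 had several and were left unnamed, 64 were array controls, and 34741 gene IDs matched RefSeq (GRCm38.p6). The matrix genes, the other lists, the promoters shown and the alternatives were chosen with earlier results of these data known.

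Each gene was read from the probe set with the highest mean log2 value over the 8 arrays, without further normalization. That mean includes the knockdown arrays, so the choice can favour a probe set that rises in them. Values were log2(intensity + 16), which understates the change of dim genes. Group means of all 8 arrays were fitted in 1 model in limma 3.58.1 (lmFit, eBayes with trend; R 4.3.3), two-sided, with Benjamini-Hochberg adjustment over 18193 genes and a threshold of 0.05. An exact permutation test of 3 against 3 arrays could not go below 0.1. The fit was tested on simulated data. Genes were given array by array where they passed in any comparison and their highest group mean exceeded the median level of all genes, an intensity of 98.8. Other members appear with values where they passed while dim, came close to the threshold, or are a partner, paralog or neighbour; these were chosen after their values were seen.

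The labels number the arrays of each group. Deviations from the group means of same-numbered control and Jmjd2b arrays correlated at 0.176, 0.111 and 0.116, and of differently numbered ones at -0.127 to 0.0164. The numbers may therefore pair these arrays, but the labels do not say so. Deviations within a group cancel out, so these correlations are not independent of each other. The main fit left the arrays unpaired, and the number was a block only in an alternative fit. Alternatives were the added constant, quantile normalization, the choice of probe set, brighter genes only, only the 2 groups compared, no trend, blocks by number or array type, and each array left out. Fits within array types, of single probe sets, and with the array sets as a block were added after seeing the data. Tables and figures were made with Python 3.11.15, pandas 2.3.3, numpy 2.4.6 and matplotlib 3.10.9.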

Additional observations from a re-analysis of the deposited data

Results flagged for a closer look

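Itga3, the integrin alpha chain of a laminin receptor, was the 1 gene of the matrix lists whose difference between the knockdowns passed: it was at 155, 205 and 153 in the control, 296, 344 and 415 in the Jmjd2b and 128 and 129 in the Jmjd2c arrays. The Jmjd2b arrays lay above and both Jmjd2c arrays below all controls, and the log2 difference between the Jmjd2c and the Jmjd2b knockdown was -1.34 ± 0.18 (limma, adjusted p = 0.0202).

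Kdm4b, the target of the Jmjd2b hairpin, also differed between the knockdowns. Its log2 difference was 2.6 ± 0.31 (limma, adjusted p = 0.0170), with the Jmjd2c arrays higher.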

How the results depend on the processing

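In the Jmjd2b knockdown, 11 matrix genes higher and 4 lower were counted. Counts are not given for the fits within the 3 arrays whose low values were set to 1 or within the other 5. Each of these fits leaves 1 array in a group. Leaving out each array in turn gave 10 to 15 higher and 3 to 5 lower. In the Jmjd2c knockdown 2 were higher and 4 lower. The higher count was 1 with only the 2 groups, 1 with array type as a block and 4 with the replicate block. With the array sets as a block it was 0. It was 1 without probe sets shared between transcripts, where Serpinh1 had no probe set left and so was not fitted. When each control or Jmjd2b array was left out, it was 1 to 3. The lower count was 2 with the mean of probe sets, 2 with only the 2 groups and 0 with the array sets as a block. When each control or Jmjd2b array was left out, it was 0 to 4. With the array sets as a block 6 of all genes were called in place of 1733, and the median log2 change of the matrix genes was -0.04 in place of 0.13. Between the knockdowns 0 were called either way; 1 was higher with quantile normalization and 1 with the replicate block, 1 was lower with 64 added, 1 without shared probe sets and 1 with brighter genes only, and leaving out each array gave 0 to 1 higher and 0 to 5 lower. The replicate block, by the labels' array numbers, made all 15 Jmjd2b calls and 5 of the 6 Jmjd2c calls again and added Hspg2 in the former. In the latter it lost Plod2 (-0.63, adjusted p = 0.0531) and added Col18a1 (1.03, adjusted p = 0.0224) and Col5a2 (0.78, adjusted p = 0.0370). Whether the numbers pair the Jmjd2c arrays with others cannot be told. Same-numbered deviations correlated at 0.0422 and 0.064 with the control and at -0.0596 and 0.141 with the Jmjd2b arrays. With 2 Jmjd2c arrays the deviations of each mirror those of the other, so these correlations cannot decide it. The sign was reversed for Nid1 on its second probe set (0.76 and 0.09). All 21 called results of the matrix genes kept their sign in every other setting. For these results the arrays of the compared groups did not overlap. Leaving out arrays, or fitting only some of them, could therefore not change the sign. Of 2367 recomputed values of single genes 2250 stayed on their side of the threshold, 71 lost and 44 gained a call, and 2 were reversed. Causes were not tested. With no measure of background used here, values near the added 16 have little order, and 15 of the 39 genes lay under the median level in every group.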
